A study of Mus musculus with 4 samples.

Results

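The 10 genes described here were listed by function for the uptake of filtered protein by the proximal tubule. They are Lrp2, Cubn, Amn, Dab2, Lrpap1, Clcn5, Ocrl, Ctns, Tmem27 and Fcgrt. All are called endocytosis genes below, although Tmem27 serves neutral amino acid transporters. They were found by gene identifier among the 54532 genes counted. All 10 passed the filter on low counts. Tmem27, which encodes collectrin, carries the newer symbol Cltrn in GENCODE M21 and was matched through its synonym.

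Polyadenylated RNA from whole kidney was compared between WT mice and mice without Zbp1 (ZBP1-KO), with 2 libraries per genotype. Every animal of both groups had been injected intraperitoneally with 500 µL pristane at 8 weeks of age and was killed 8 months later, so that no library came from an uninjected kidney. Pristane, a hydrocarbon oil, is used to provoke a lupus-like disease in mice. The study described the mice as female and of C57BL/6J background, and the knockout as made by CRISPR-Cas9, which removed exons 2 to 8 of Zbp1. The protein it encodes senses Z-form nucleic acids. The WT mice were purchased, and whether they shared litters or cages with the knockout is not given in the sources used here. The comparison asked how the absence of Zbp1 alters the kidney in lupus-like disease, here for the genes of protein uptake.

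Plasma proteins that cross the glomerular filter are bound at the brush border of the proximal tubule by the giant receptors megalin (Lrp2) and cubilin (Cubn). Clathrin-coated pits carry them inward, acidified endosomes release the cargo, the receptors return to the surface, and lysosomes degrade the protein. Loss of single components of this route causes low-molecular-weight proteinuria in inherited disorders such as Dent disease, Lowe syndrome and Donnai-Barrow syndrome.

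Total counts ranged from 9878776 to 12921925 per library, and 49.5% to 61.5% of them fell on mitochondrially encoded genes. The remaining 4003417 to 5782924 counts per library are the depth behind the values below, and the 10 genes together took 0.196% to 0.216% of them. Zbp1, the targeted gene, had 94 and 125 counts in WT against 18 and 0 counts in ZBP1-KO, where the 0 allows up to 0.323 CPM (counts divided by library size after TMM scaling). The knockout over WT gave a log2 fold change of −3.64 ± 0.89 (SE) for Zbp1, which was not called by edgeR's quasi-likelihood test (adjusted p = 0.999).

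No endocytosis gene differed between the genotypes beyond the error of the test. At an adjusted p under 0.05 in the edgeR quasi-likelihood test, 0 of the 10 genes were called, where 0.0134% of all 14908 tested genes were called. The edgeR exact test, DESeq2 and limma-voom called 0 of them too, and 0 had an unadjusted p under 0.05 in any of these tests, where 3.88% of all tested genes did in the quasi-likelihood test, 1.91% higher and 1.97% lower in ZBP1-KO. The median log2 fold change (ZBP1-KO over WT) of the 10 genes was 0.083, beside −0.0061 over all tested genes, with 6 genes above 0 and 4 below. Each of the 10 adjusted p-values was 0.999 in edgeR. These p-values set the genotype difference against the spread between the libraries, which the fit estimates with information shared across all tested genes. The labels give each library as its own mouse kidney without naming the animals. In whole kidney, fewer proximal tubule cells and less RNA per cell cannot be told apart.

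**Figure D1:**
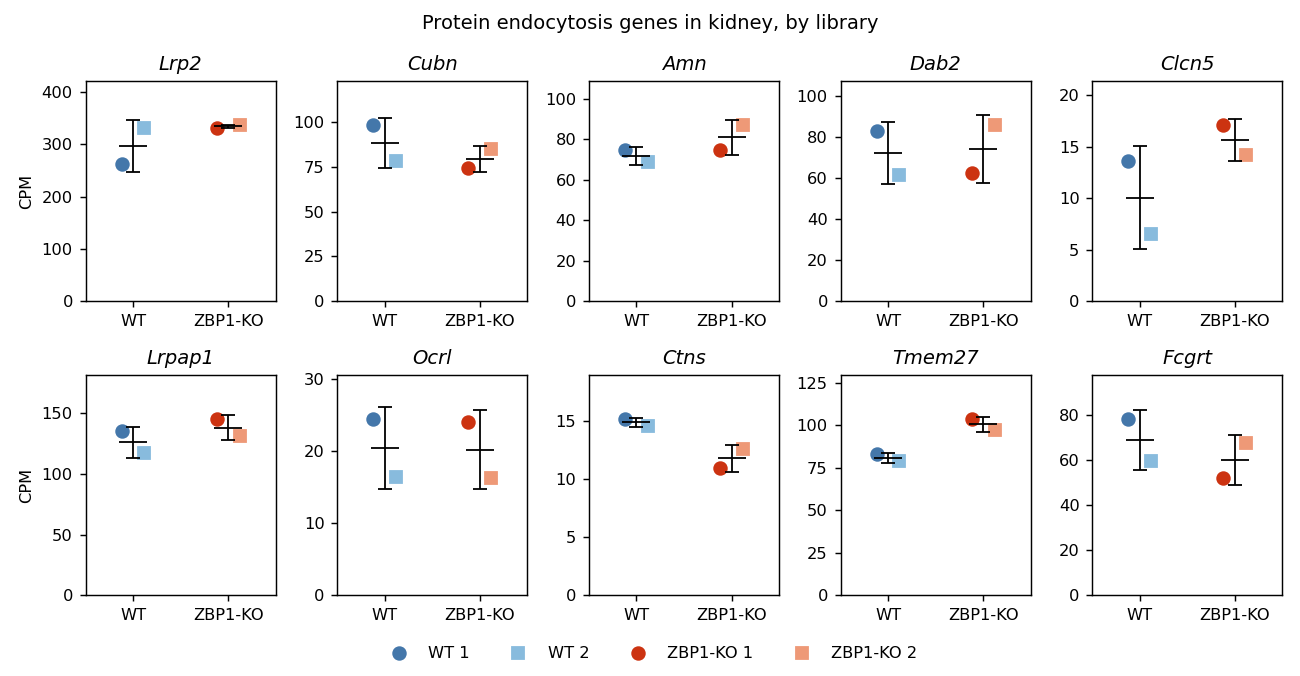
CPM (scaled counts, linear axis from 0) of the 10 endocytosis genes in each of the 4 libraries, where points are libraries and the black bar and whiskers are the group mean ± SD (n = 2). Only Clcn5, Tmem27 and Ctns have both ZBP1-KO points on the same side of both WT points, and for the other genes the groups overlap.

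The receptors come first. Megalin, the principal endocytic receptor of the proximal tubule, is encoded by Lrp2 (ENSMUSG00000027070, chromosome 2, 69424340 to 69586065, minus strand; all positions from GENCODE M21, GRCm38). Its expression was 262 and 332 CPM in the WT libraries against 332 and 337 CPM in the ZBP1-KO libraries. WT 1 was thus the lowest, and WT 2 was level with both ZBP1-KO libraries. The log2 fold change was 0.17 ± 0.19 (SE), with a 95% interval of −0.24 to 0.58, which corresponds to 0.849-fold to 1.49-fold. Without WT 1 the log2 fold change of Lrp2 was 0.0012, and without WT 2 it was 0.34. Lrp2 had the most counts of the 10 genes, 3128 to 4500 per library, and its mean CPM was above that of 99.3% of the tested genes.

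The Lrp2 promoter is shown because Lrp2 led the group in counts, and that of Ocrl because it was the only window of the 10 genes with a core motif of HNF4 factors, transcription factors of the proximal tubule of which Hnf4a was measured in the same libraries. Each window comes from RefSeq (GRCm38.p6) and spans 250 bases before to 50 bases after a transcription start, written 5′ to 3′ on the gene's strand, with capitals for the motif CAAAGTCC or its reverse complement GGACTTTG.
Lrp2 (chr2:69585980-69586279, minus strand): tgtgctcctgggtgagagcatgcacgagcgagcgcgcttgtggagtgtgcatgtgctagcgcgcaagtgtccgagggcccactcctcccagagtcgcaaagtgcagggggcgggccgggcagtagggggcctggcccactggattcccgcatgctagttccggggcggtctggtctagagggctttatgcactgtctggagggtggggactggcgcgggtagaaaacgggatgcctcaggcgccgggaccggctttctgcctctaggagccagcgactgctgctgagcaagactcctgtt
Ocrl (chrX:47912206-47912505, plus strand): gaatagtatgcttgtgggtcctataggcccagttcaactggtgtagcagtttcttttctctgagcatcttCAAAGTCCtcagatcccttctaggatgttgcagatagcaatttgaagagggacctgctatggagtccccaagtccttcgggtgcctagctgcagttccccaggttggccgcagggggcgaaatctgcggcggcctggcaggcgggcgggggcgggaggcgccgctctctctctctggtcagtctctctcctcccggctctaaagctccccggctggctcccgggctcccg

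The motif was searched on both strands of 14 windows, which covered all 10 genes. It was found in 1 of them, whereas 1.42% of all 32851 RefSeq windows of this length held it. In Ocrl the match began 180 bases before the start. Its 9-base form, CAAAGTCCA or TGGACTTTG, was in 0 of the 14 and in 0.475% of all windows. The letters were chosen with the sequences in view. A match describes the window and not a bound site, and the windows without one lack only these letters.

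Cubilin, a receptor without a membrane anchor of its own that binds albumin, transferrin and the intrinsic factor-vitamin B12 complex, is encoded by Cubn (chromosome 2, 13276338 to 13491813, minus strand). Cubn measured 98.1 and 78.3 CPM in WT against 74.3 and 84.6 CPM in ZBP1-KO. The highest library was WT 1 and the lowest ZBP1-KO 1, and the groups overlapped. For Cubn the log2 fold change was −0.15 ± 0.19 (SE), with a 95% interval of −0.58 to 0.27, and it was 0.013 without WT 1. An antisense gene, Gm13270, shares 368 exon bases with Cubn and had 4 counts in WT 1 and 0 in each of the others.

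Amnionless, which anchors cubilin in the membrane and carries it to the cell surface, is encoded by Amn (chromosome 12, 111271095 to 111276426, plus strand). Its CPM was 74.8 and 68.7 in WT against 74.8 and 86.9 in ZBP1-KO, so that WT 1 and ZBP1-KO 1 were level, WT 2 was lowest and ZBP1-KO 2 highest. The log2 fold change was 0.17 ± 0.19 (SE, 95% interval −0.24 to 0.58). As cubilin and amnionless work as a complex, their counts were set against each other within each library. Amn reached 76.2 and 87.8 counts per 100 Cubn counts in WT against 101 and 103 in ZBP1-KO. Both ZBP1-KO ratios lay above both WT ratios, but the exact 95% intervals, which cover counting error only, ran from 79.7 to 96.6 in WT 2 and from 92.1 to 110 in ZBP1-KO 1 and overlapped. The mean ratio was 82.0 ± 8.15 in WT and 102 ± 1.56 in ZBP1-KO (SD, n = 2 each), and with 2 libraries per group an exact permutation test cannot give a two-sided p below 0.333.

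Fcgrt (chromosome 7, 45092990 to 45103851, minus strand) encodes the heavy chain of the neonatal Fc receptor, which salvages immunoglobulin G and albumin from degradation. It measured 78.3 and 59.5 CPM in WT against 52.0 and 67.8 CPM in ZBP1-KO. The replicates of each genotype differed by more than the group means did. Its log2 fold change was −0.20 ± 0.22 (SE, 95% interval −0.68 to 0.27). The receptor's light chain, B2m, which is shared with major histocompatibility class I molecules, was among the listed ligands and measured 341 and 509 CPM in WT against 683 and 524 CPM in ZBP1-KO. B2m had a log2 fold change of 0.51 ± 0.22 (SE), with an unadjusted p of 0.0433 in edgeR (adjusted p = 0.999). Fcgrt is also used by endothelium and macrophages. Endothelial markers summed to 258 and 306 CPM in WT against 310 and 281 CPM in ZBP1-KO, and macrophage markers to 276 and 188 CPM in WT against 272 and 256 CPM in ZBP1-KO. The part of these cells in the Fcgrt values was not tested.

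Next come the partners that fold the receptors or couple them to the coat, followed by Tmem27, which does neither. Lrpap1 (chromosome 5, 35091501 to 35105766, minus strand) encodes the receptor-associated protein, a chaperone that keeps ligands off megalin in the secretory pathway. It varied least of the 10 genes between libraries, with 135 and 117 CPM in WT against 145 and 131 CPM in ZBP1-KO, a ratio of highest to lowest of 1.24. Lrpap1 had a log2 fold change of 0.13 ± 0.18 (SE, 95% interval −0.27 to 0.53).

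Dab2 (chromosome 15, 6299788 to 6440712, plus strand) encodes the adaptor that links the tail of megalin to clathrin. Expression was 82.8 and 61.6 CPM in WT against 62.4 and 85.6 CPM in ZBP1-KO. Each genotype held 1 high and 1 low library, and the group means of 72.2 ± 14.97 and 74.0 ± 16.4 CPM (SD, n = 2 each) were nearly level. The log2 fold change of 0.034 ± 0.22 (SE, 95% interval −0.45 to 0.52) became −0.17 without WT 2 and −0.22 without ZBP1-KO 2. Dab2 is also made by macrophages and stromal cells. The stromal markers summed to 782 and 623 CPM in WT against 427 and 674 CPM in ZBP1-KO, lowest in ZBP1-KO 1. The macrophage markers summed to 276 and 188 CPM in WT against 272 and 256 CPM in ZBP1-KO, lowest in WT 2. Their part in the Dab2 values was not tested.

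Tmem27 (ENSMUSG00000015401, X chromosome, 164088830 to 164118860, plus strand) encodes collectrin, a brush-border protein that brings neutral amino acid transporters to the surface. It measured 83.0 and 78.9 CPM in WT against 104 and 97.4 CPM in ZBP1-KO, and both ZBP1-KO libraries lay above both WT libraries. For Tmem27 this gave a log2 fold change of 0.31 ± 0.18 (SE), with a 95% interval of −0.079 to 0.71, and its unadjusted p of 0.108 became 0.999 once adjusted in edgeR. With any 1 library left out, it stayed between 0.26 and 0.35. The difference of the group means of log2 CPM was larger than both replicate gaps for Tmem27 and Ctns, 2 of the 10 genes, a share near the 20.9% of all tested genes that met this condition.

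Endosome and lysosome members followed. Clcn5 (chromosome X, 7153810 to 7319358, minus strand) encodes the endosomal chloride-proton exchanger that is mutated in Dent disease. Its levels were 13.6 and 6.50 CPM in WT against 17.1 and 14.2 CPM in ZBP1-KO, from 169, 76, 232 and 132 counts. Both ZBP1-KO libraries were above both WT libraries, but WT 1 lay close to ZBP1-KO 2 and WT 2 lay far below the rest. Among the 10 genes Clcn5 had the largest log2 fold change, 0.64 ± 0.37 (SE), and the widest 95% interval, −0.17 to 1.45, or 0.891-fold to 2.73-fold. In edgeR the unadjusted p of Clcn5 was 0.109 (adjusted p = 0.999). The value rested on WT 2: without that library the log2 fold change was 0.20, and without WT 1 it was 1.26, with an unadjusted p of 0.0142 in edgeR (adjusted p = 1.00) from a fit in which WT was 1 library.

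Ocrl (chromosome X, 47912387 to 47965868, plus strand) encodes the endosomal phosphoinositide phosphatase that is lost in Lowe syndrome. It measured 24.4 and 16.4 CPM in WT against 24.04 and 16.3 CPM in ZBP1-KO, so that replicate 1 of either genotype was high and replicate 2 low, and the genotypes were level. Its log2 fold change was −0.016 ± 0.29 (SE, 95% interval −0.65 to 0.62). Clcn5 reached 55.6 and 39.6 counts per 100 Ocrl counts in WT against 71.2 and 87.4 in ZBP1-KO. The exact 95% intervals of WT 1, 45.8 to 67.3, and of ZBP1-KO 1, 59.9 to 84.5, overlapped.

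Ctns (chromosome 11, 73183596 to 73199042, minus strand) encodes cystinosin, which exports cystine from lysosomes and is mutated in cystinosis. It was the only one of the 10 genes with both ZBP1-KO libraries below both WT libraries, at 15.2 and 14.6 CPM in WT against 11.0 and 12.6 CPM in ZBP1-KO. Its log2 fold change was −0.34 ± 0.29 (SE), with a 95% interval of −0.98 to 0.30, and edgeR gave an unadjusted p of 0.269 (adjusted p = 0.999). The value ranged from −0.45 to −0.25 with any 1 library left out. At 117 to 189 counts per library, Ctns was among the members with the fewest counts.

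**Figure D2:**
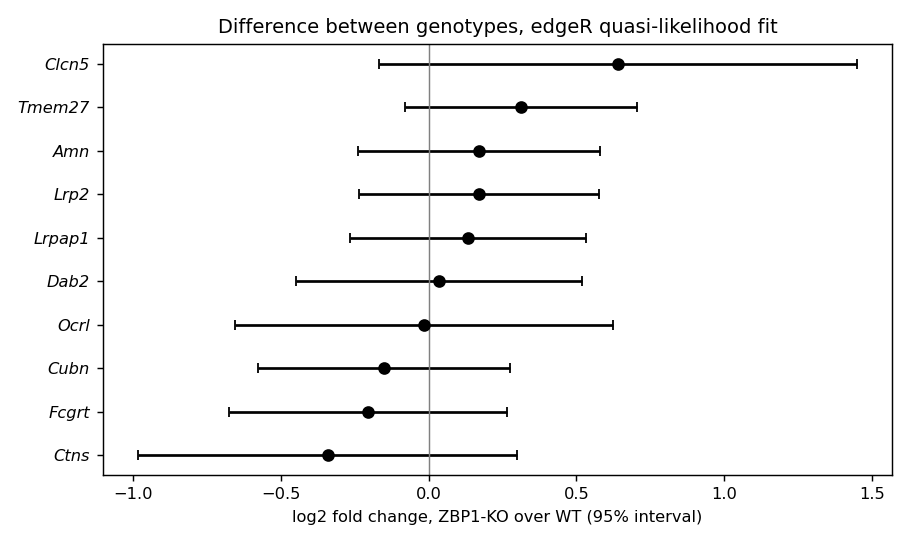
Log2 fold change (ZBP1-KO over WT) of the 10 endocytosis genes with 95% intervals from the edgeR quasi-likelihood fit. Every interval spans 0, from Ctns at −0.34 to Clcn5 at 0.64.

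Groups that did not overlap were thus seen for Clcn5 and Tmem27, both higher in ZBP1-KO, and for Ctns, which was lower. These 3 of 10 genes stand beside 32.3% of all tested genes whose groups did not overlap, 16.0% of all being higher in ZBP1-KO and 16.3% lower. By library, WT 2 was lowest for 5 of the 10 genes and highest for 0, and WT 1 was highest for 4.

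Only counts per gene were used, so that uneven coverage along the transcripts was not examined. To scale for differences in length between the genes, CPM was divided by the exon length of each gene model in kilobases. On this scale Tmem27 was highest, with 58.8 ± 7.61 CPM per kb over the 4 libraries (SD), followed by Amn with 41.4 ± 4.15, Lrpap1 with 32.1 ± 2.85 and Fcgrt with 30.6 ± 5.36. The ranges of Lrpap1 and Fcgrt overlapped, and each was the higher in 2 of the 4 libraries. Lrp2 had 18.9 ± 2.15 CPM per kb, Dab2 9.95 ± 1.75, Cubn 5.61 ± 0.698 and Ctns 3.94 ± 0.570. Ocrl with 2.14 ± 0.481 and Clcn5 with 1.12 ± 0.393 CPM per kb closed the order. Apart from Lrpap1 and Fcgrt, neighbours in this order kept it in each of the 4 libraries with ranges that did not overlap, and all 10 genes kept their place when the longest transcript was used as the length. The receptor genes Lrp2 and Cubn, whose gene models have 16701 and 14935 exon bases, were thus lower per length than their small partners Amn and Lrpap1.

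Counts relative to Lrp2 within the same library do not depend on the scaling between libraries. Cubn reached 37.4 and 23.6 counts per 100 Lrp2 counts in WT against 22.4 and 25.1 in ZBP1-KO, and the interval of WT 1, 35.01 to 40.0, lay above those of the 3 other libraries. For Lrpap1 the ratio was 51.6 and 35.3 in WT against 43.8 and 38.9 in ZBP1-KO. WT 1 held the highest ratio for all 9 partners, but all 9 share Lrp2 as denominator, which was lowest in WT 1. Lrp2 measured 262 CPM there against 332 to 337 CPM in the other libraries. For Clcn5 and Tmem27, WT 1 lay just above ZBP1-KO 1, at 5.18 against 5.16 and at 31.7 against 31.3. WT 2 and ZBP1-KO 1 resembled each other for Cubn and Dab2. Only for Ctns did the genotypes lie apart, with 5.80 and 4.40 per 100 Lrp2 counts in WT against 3.31 and 3.74 in ZBP1-KO.

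**Figure D3:**
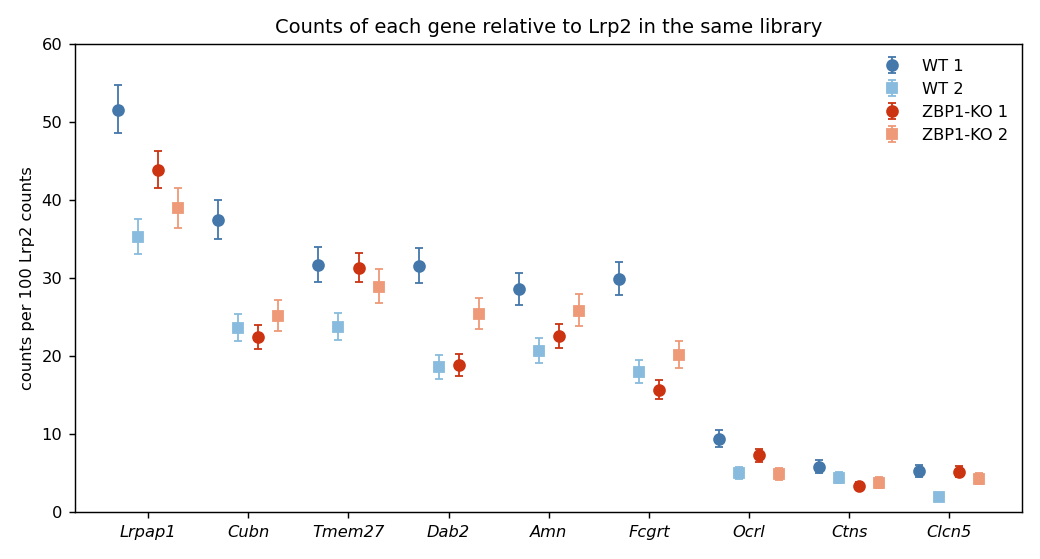
Counts of each of the other 9 genes per 100 Lrp2 counts in the same library (linear axis from 0), with exact 95% intervals that cover counting error only. WT 1 (dark blue) is highest for every gene, although Lrp2, the shared denominator, was lowest in this library. For Clcn5 and Tmem27, WT 1 is nearly level with ZBP1-KO 1. WT 2 lies within or near the range of the ZBP1-KO libraries for Cubn, Dab2 and Fcgrt.

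The endocytosis genes were then set beside markers of the proximal tubule itself. The labelled tissue was borne out by its markers, with 529 to 1032 CPM of the phosphate transporter Slc34a1 and 261 to 395 CPM of the water channel Aqp1. Expressed as the mean over members of log2 CPM, centred on the 4 libraries, the endocytosis genes scored 0.10 and −0.19 in WT against 0.023 and 0.062 in ZBP1-KO. The 13 brush border and metabolism markers scored 0.048 and −0.13 in WT and −0.055 and 0.14 in ZBP1-KO. In both lists WT 2 was lowest, and the distance between their mean log2 CPM was −2.14 ± 0.077 in WT and −2.14 ± 0.11 in ZBP1-KO (SD, n = 2 each). The genotypes thus differed by less than the spread of replicates in the level of the endocytosis genes relative to these markers.

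ZBP1-KO 1 stood apart in the early segments. Markers of segments S1 and S2 scored 0.19 and 0.16 in WT, −0.83 in ZBP1-KO 1 and 0.48 in ZBP1-KO 2. Slc5a2, the glucose transporter of segment S1, measured 45.0 and 33.9 CPM in WT but 8.48 CPM in ZBP1-KO 1 and 44.0 CPM in ZBP1-KO 2. Slc5a12, a lactate transporter, measured 19.0 and 10.1 CPM in WT against 4.13 and 16.8 CPM in ZBP1-KO. The endocytosis genes of that library did not share this low level: Lrp2 at 332 CPM and Lrpap1 at 145 CPM were among the higher values, whereas Cubn, Ctns and Fcgrt had their lowest value there. Segment S3 markers scored 0.26 and −0.24 in WT against 0.16 and −0.19 in ZBP1-KO, and their transporter Slc5a1 measured 14.9 and 10.4 CPM in WT against 18.9 and 12.1 CPM in ZBP1-KO. Slc7a13, a transporter of segment S3 that is sparse in female mice, had 12 and 5 counts in WT against 4 and 0 in ZBP1-KO. Of the 28 tested markers of these 3 proximal tubule lists, 1 had an unadjusted p under 0.05 in edgeR, a share near the 3.88% of all tested genes.

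**Figure D4:**
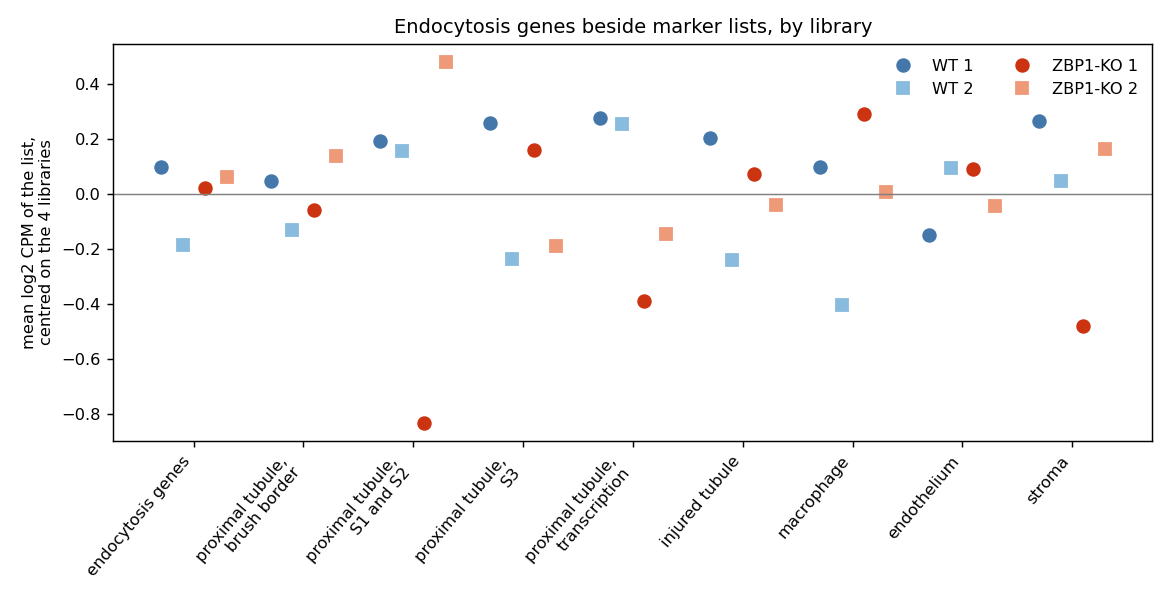
Mean log2 CPM of each gene list, centred on the 4 libraries, with 1 point per library. The endocytosis genes lie between −0.19 and 0.10, while the S1 and S2 markers drop to −0.83 in ZBP1-KO 1 only.

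Other cell types were examined with marker lists of their own. Of 8 markers of tubular injury, 5 were tested, with a median log2 fold change of −0.087 (−0.25 to 0.20 with 1 library left out). The defining marker was sparse: Havcr1 had 1 to 5 counts per library. Lcn2, another injury gene and a megalin ligand, measured 34.3 and 12.6 CPM in WT against 38.1 and 17.6 CPM in ZBP1-KO. Podocyte markers summed to 113 and 113 CPM in WT against 135 and 164 CPM in ZBP1-KO. Their median log2 fold change was 0.37 (0.28 to 0.51 with 1 library left out). Nphs1, which encodes nephrin of the slit diaphragm, measured 7.48 and 15.1 CPM in WT against 12.2 and 13.4 CPM in ZBP1-KO. Among the markers of other cell types, Cfd of the adipocyte list was called higher in ZBP1-KO (log2 fold change 2.20 ± 0.23, SE), with 14.4 and 19.8 CPM in WT against 83.7 and 73.3 CPM in ZBP1-KO (edgeR adjusted p = 0.00889). All 5 tested adipocyte markers of 6 were above 0 and summed to 80.1 and 106 CPM in WT against 219 and 177 CPM in ZBP1-KO, with Lep at 0 counts in each library. The median log2 fold change of this list was 2.13 (1.92 to 2.44 with 1 library left out). All 5 were higher with groups apart, beside 16.0% of all tested genes. All 5 also had an unadjusted p under 0.05 in edgeR, beside 1.91% of all tested genes higher at that limit. Immediate-early genes, which respond within minutes to handling and stress, summed to 518 and 192 CPM in WT against 108 and 105 CPM in ZBP1-KO, with 10 of 10 below 0. Their highest library was WT 1, in which Lrp2 alone of the 10 endocytosis genes was lowest, while 4 of the 10 were highest. Median log2 fold changes of the other lists were 0.10 for the thick ascending limb and distal tubule, −0.033 for the collecting duct, 0.064 for endothelium, 0.29 for macrophages (0.085 to 0.66 with 1 library left out) and −0.30 for stroma (−0.65 to −0.082). The median of T and B lymphocyte markers was 0.84 but ran from −0.058 without WT 2 to 2.28 without WT 1, and their summed level was 127 and 29.3 CPM in WT against 53.0 and 62.7 CPM in ZBP1-KO. The part of any of these in the endocytosis values was not tested.

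The remaining steps of uptake were covered by 6 lists with 103 tested genes. Of these, 0 were called by edgeR, DESeq2 or limma-voom, where the quasi-likelihood test of edgeR called 0.0134% of all tested genes. At an unadjusted p under 0.05 in that test, 1 of the 103 genes was higher in ZBP1-KO and 2 were lower. Over all tested genes 1.91% were higher and 1.97% lower at that limit. Clathrin coat and adaptor genes had a median log2 fold change of −0.037 over 19 genes, with 9 above 0 and 10 below. The genes with the smallest p among those whose groups lay apart were the adaptors Hip1 (0.49 ± 0.25), Hip1r (0.38 ± 0.21) and Fcho2 (0.38 ± 0.21; log2 fold change ± SE, adjusted p = 0.999 each in edgeR). Hip1 measured 15.8 and 17.7 CPM in WT against 23.4 and 23.7 CPM in ZBP1-KO.

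Endosome sorting and recycling genes had a median of −0.0027 over 22 genes, with 11 on either side of 0. Pik3c3, the lipid kinase of early endosomes, measured 17.8 and 10.9 CPM in WT against 10.9 and 6.79 CPM in ZBP1-KO, with a log2 fold change of −0.69 ± 0.37 (SE). Vps29 of the retromer, at 0.37 ± 0.23, and the endosomal adaptor Appl1, at 0.38 ± 0.31, lay on the other side. Genes of the V-ATPase, the pump that acidifies endosomes, and of endosomal ion transport had a median of 0.035, with 13 of 22 above 0. Here the V-ATPase accessory subunit Atp6ap1 had a log2 fold change of 0.33 ± 0.18, Ostm1 one of 0.56 ± 0.39 and its partner Clcn7, the lysosomal chloride-proton exchanger, one of −0.27 ± 0.20.

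Lysosomal genes had a median of −0.025 over 22 genes, with 9 above 0 and 13 below. Ctsh, a lysosomal protease, measured 60.2 and 52.2 CPM in WT against 42.6 and 37.3 CPM in ZBP1-KO, with a log2 fold change of −0.49 ± 0.20 (SE) and an unadjusted p of 0.0309 in edgeR (adjusted p = 0.999). The sialidase Neu1 and Tfeb, the regulator of lysosomal genes, had log2 fold changes of −0.27 ± 0.18 and −0.37 ± 0.26. Like Ctns, all 3 had both ZBP1-KO libraries below both WT libraries, as did 4 of the 22 lysosomal genes, beside 16.3% of all tested genes.

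Transcripts of filtered ligands made in the kidney were counted too. Their median log2 fold change was 0.26, with 9 of 11 tested genes above 0, beside 49.4% of all tested genes, and it was −0.0030 at its lowest with 1 library left out. Besides B2m, Trf (transferrin) measured 9.97 and 9.24 CPM in WT against 14.5 and 15.3 CPM in ZBP1-KO, and Tcn2 (transcobalamin) 265 and 216 CPM in WT against 293 and 290 CPM in ZBP1-KO. Their log2 fold changes were 0.63 ± 0.30 and 0.28 ± 0.18 (SE). The transcript of intrinsic factor, Gif, had 0 counts in each library.

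Of the transcription factors of the proximal tubule, 1 of 7 tested was above 0 and 6 were below, with a median of −0.26 (−0.56 to −0.22 with 1 library left out), where 49.4% of all tested genes were above 0. Of the 7, 4 had both ZBP1-KO libraries below both WT libraries, beside 16.3% of all tested genes. Hnf4a, whose core motif is marked in the Ocrl promoter above, measured 147 and 146 CPM in WT against 126 and 120 CPM in ZBP1-KO, with a log2 fold change of −0.26 ± 0.18 (SE). Maf measured 196 and 192 CPM in WT against 107 and 176 CPM in ZBP1-KO, at −0.46 ± 0.23. Ppara was sparse, with 37 and 63 counts in WT against 10 and 10 in ZBP1-KO, and had a log2 fold change of −2.20 ± 0.82 (unadjusted p = 0.0199, adjusted p = 0.999 in edgeR).

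**Figure D5:**
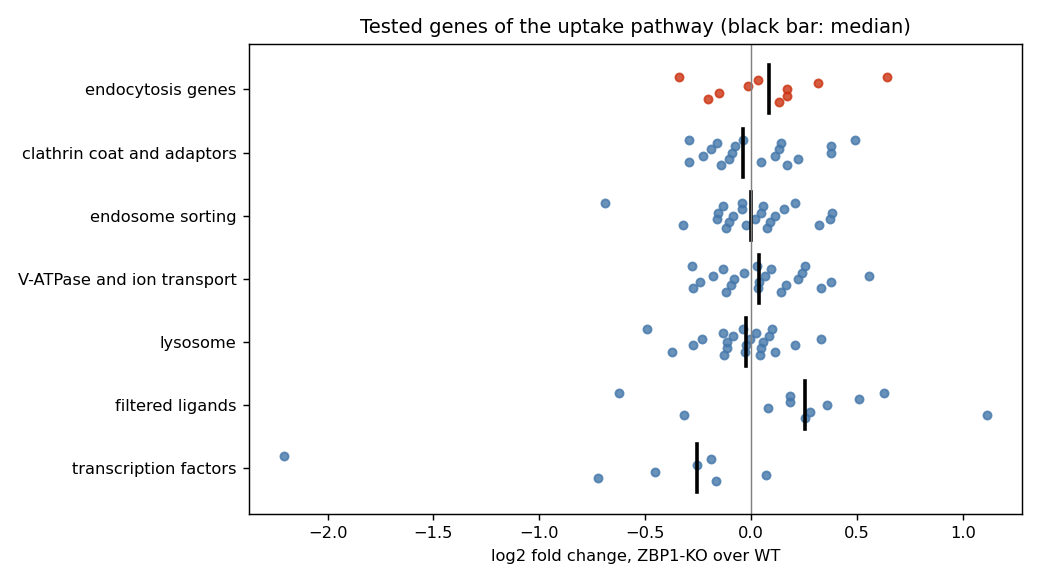
Log2 fold change (ZBP1-KO over WT) of the 10 endocytosis genes (red) and of the tested genes of 6 lists of the same pathway (blue), 1 point per gene, with vertical offsets for visibility only. The medians (black bars) lie between −0.037 and 0.083 apart from the filtered ligands at 0.26 and the transcription factors at −0.26.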

How the data were processed

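Counts were deposited as 1 table per library. The authors enriched polyadenylated RNA, prepared TruSeq libraries by a protocol described in the study's methods as strand-specific, sequenced read pairs, trimmed with Trimmomatic, aligned with HISAT2 (mm10) and assigned uniquely mapped pairs to genes with featureCounts. Versions, annotation release and the strand setting of the counting are not given in the sources used here, so exons shared with antisense genes carry uncertain counts.

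Of 54532 gene identifiers, 54495 matched GENCODE M21 (GRCm38). Genes were tested in edgeR 4.0.16 (R 4.3.3) by the quasi-likelihood F test, two-sided, after filterByExpr (minimum count 10, total 15) and TMM scaling, with genotype as the only term and Benjamini-Hochberg adjustment over 14908 genes. The SE is the absolute log2 fold change over the square root of F, and 95% intervals use the moderated degrees of freedom. Scores used log2 CPM with a prior count of 2. For a count of 0 the limit was set at 3 counts, and intervals and limits cover counting error only. Only the quasi-likelihood test was checked on simulated counts. The check set limits on false calls, on the sign of the largest changes and on interval coverage. It set none on the share of true changes called.

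Groups and replicate numbers came from the sample titles. Alternatives were other scalings, no filter, no mitochondrial genes, the edgeR exact test, DESeq2 1.42.0, limma-voom (limma 3.58.1), the replicate number as a block and each library left out. The members and lists were chosen with earlier results of these data known. Genes named were the 10 members, Zbp1, up to 3 genes per pathway list with the smallest p, a mean of at least 1 CPM and groups apart, called list genes, and the first 2 genes of marker lists where used. Gif was named after its values were seen. Some list genes are not reported here by name.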

Additional observations from a re-analysis of the deposited data

How the results depend on the processing

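With 2 libraries per group, modest changes of single genes could not be resolved. Even the targeted gene Zbp1, at 0 to 125 counts per library and a log2 fold change of −3.64, was not called in the main fit. Among the 10 genes, the 95% interval of the log2 fold change was narrowest for Lrpap1 and Tmem27 and widest for Clcn5. In each alternative run, 0 of the 10 endocytosis genes and 0 of the other pathway genes were called. Of 120 log2 fold changes of the 10 genes under alternatives, 114 kept their sign, and the 6 that did not were 0.017 for Ocrl with limma-voom and 5 with 1 library left out, where the ranges were −0.31 to 0.013 for Cubn, −0.22 to 0.26 for Dab2 and −0.34 to 0.29 for Ocrl. The median of the 10 genes stayed between 0.073 and 0.084 with all 4 libraries and ran from −0.071 (without WT 2) to 0.23 (without WT 1) with 1 left out.

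Over all genes 2 were called, against 41 with all genes of at least 1 count, where more genes were tested, 4 without mitochondrially encoded genes, 14 with the edgeR exact test, 9 with DESeq2, 7 with limma-voom and 0 to 37 with 1 library left out. Over the marker lists, which include the immediate-early genes, 1 gene was called, against 7, 1, 4, 2 and 2 in the same order of settings. With 1 library left out the number was 0 to 8. Cfd was called in each of these settings with all 4 libraries, and the other genes called there were immediate-early genes. They were Fos, Junb, Egr1, Ier2, Nr4a1 and Dusp1 with all genes of at least 1 count. With the exact test they were Egr1, Nr4a1 and Dusp1, and with DESeq2 and limma-voom only Dusp1. Zbp1 was called with all genes of at least 1 count (log2 fold change −3.65, edgeR adjusted p = 2.86e-05) and with the exact test (−3.67, edgeR adjusted p = 0.0110), over a range of adjusted p from 2.86e-05 to 1.00, and its log2 fold change ran from −4.83 to −2.78 with 1 library left out, where the lower end is a bound set at 3 counts. Zbp1 was also called by edgeR without ZBP1-KO 1 (adjusted p = 0.00156) and without ZBP1-KO 2 (adjusted p = 0.0449), where the lone ZBP1-KO library is assumed to vary like the WT libraries. The cause of these changes was not tested. The endocytosis genes exceeded WT by 0.0015 on the log2 scale relative to brush border markers, by −0.076 to 0.079 with 1 library left out, and by 0.44 relative to S1 and S2 markers, which were low in ZBP1-KO 1.

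A fit with the replicate block called 11 genes over all genes and 4 in the marker lists. These were Cfd and the immediate-early genes Egr1, Nr4a1 and Dusp1. Of the 10 endocytosis genes, 0 were called and Clcn5 had an unadjusted p under 0.05, as it did without WT 1. Across genes, deviations from the group means correlated by 0.0040 between libraries that carry the same number. This value cannot show whether such libraries were processed together, which the sample titles do not give.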
